A study of Mus musculus with 8 samples.

Results

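The insulin-like growth factor (IGF) axis was measured as 10 genes in mouse aortic smooth muscle cells (MASMCs): the ligands Igf1 and Igf2, the receptors Igf1r and Igf2r, and the binding proteins Igfbp2, Igfbp3, Igfbp4, Igfbp5, Igfbp6 and Igfbp7. The members were found by gene symbol, and all 10 of 10 had a row among the 18533 gene symbols in the deposited count files and were among the 13535 genes tested. They were put together as a family because Igfbp2 stood out among the abundant genes that were lower without Hint1, so they were selected on the genotype contrast itself, that is, on the fold change and CPM of Hint1-/- against WT cells in these 8 samples. The fold changes of the members are therefore given as a description, with no p-value. The intervals of the members, and whether a member was called or passed by adjusted p, come from that same contrast. This holds for the main fit and for the alternative fits. For the members these values describe the size and spread of the difference, and they are not independent evidence that a member differed.

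The 8 libraries, WT (n = 4) and Hint1-/- (n = 4), were made from primary smooth muscle cells grown out of the aortas of male mice aged 4 to 6 weeks, either WT or carrying a whole-body loss of Hint1. HINT1 is a small nucleotide-binding protein. Every culture, the WT ones included, had received the growth factor PDGF-BB at 20 ng/mL for 24 hours, so the data hold no unstimulated cells. The study's methods name the thoracic aorta in one place and the whole aorta in another, and describe removal of adventitia and endothelium before digestion. Whether the 4 samples of a genotype came from separate mice or cultures is not given in the sources used here. The spread between samples may then be technical, and the p-values given for other genes set the genotype difference against only that spread.

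IGF1 and IGF2 are secreted peptides that act mainly through IGF1R, a receptor tyrosine kinase that feeds the PI3K-AKT and MAPK pathways and promotes growth and survival of vascular smooth muscle cells. IGF2R, the mannose 6-phosphate receptor, takes IGF2 up for breakdown in lysosomes. The binding proteins hold IGFs outside the cell, extend their lifetime and can block or favour receptor binding. Proteases such as PAPP-A cut them and release the ligand.

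Hint1 (chr11:54866383-54870501), the targeted gene, checked the genotype labels first. It had 2272, 2336, 2364 and 2301 counts in WT replicates 1 to 4 and 713, 748, 778 and 715 counts in Hint1-/- replicates 1 to 4. The Hint1-/- level was 32.1% of WT, and the files do not show which exons the remaining counts came from. All counts are estimated read counts per gene, rounded to whole numbers, and samples held 20778077 to 20888041 counts in all. A level is given as CPM, a gene's counts scaled to a common library size, and coordinates are those of GRCm38, the assembly also called mm10. A gene was called when its adjusted p was under 0.05 and its fold change over 1.5, in edgeR's quasi-likelihood test with Benjamini-Hochberg adjustment over all genes tested.

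Of the 10 members, 3 were called. Igfbp2 and Igfbp5 were lower in Hint1-/- cells and Igf2 was higher, while the other members lay within the fold limit. Over all genes tested 2.83% were called, 1.49% as lower and 1.34% as higher. By the adjusted p alone 7 members passed, 4 lower and 3 higher, against 21.5% of all genes. In 6 members no WT sample overlapped a Hint1-/- sample in CPM, against 23.0% of all genes. Because the contrast chose the members, nothing is read from these counts about the family. The median log2 fold change was 0.02 over the members and 0.0003 over all genes tested.

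**Figure D1:**
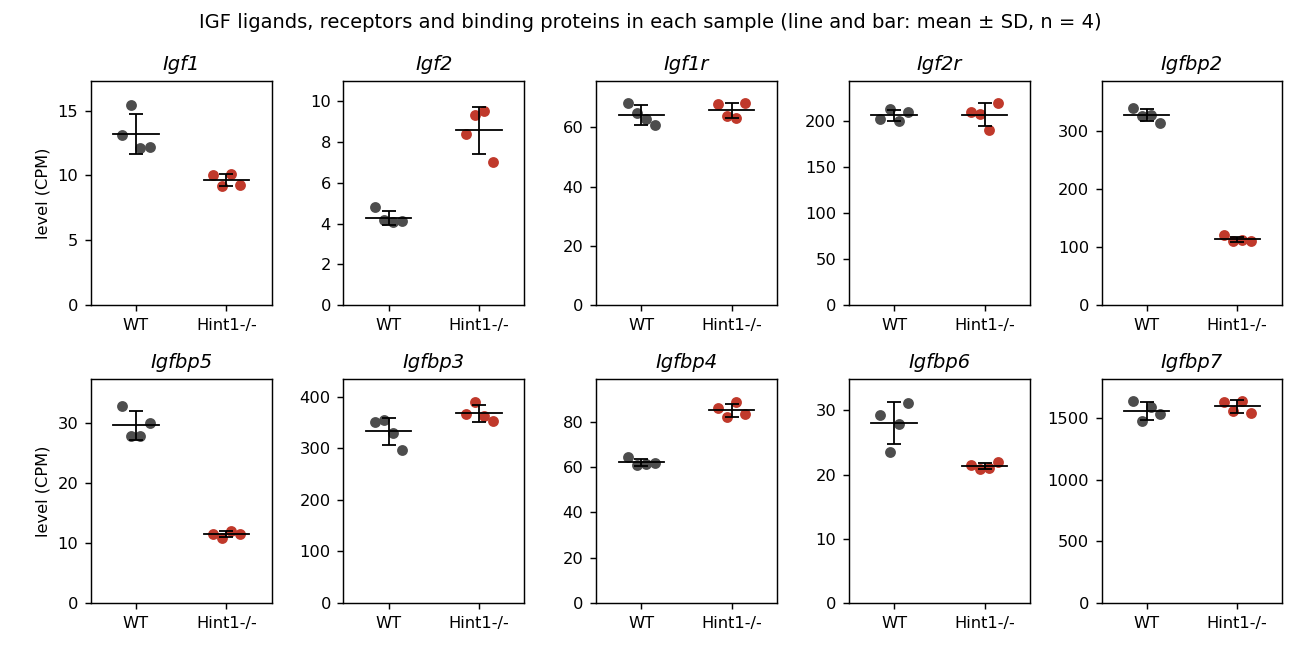
Level of each member in CPM (vertical axes, from 0) in the 4 WT samples (grey) and the 4 Hint1-/- samples (red), with the mean and SD as line and bar. Igfbp2, Igfbp5 and Igf2 show wide gaps between the genotypes, Igf1, Igfbp4 and Igfbp6 narrow ones, and the samples of Igf1r, Igf2r, Igfbp3 and Igfbp7 overlap.

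Igfbp2 and Igfbp5 encode binding proteins that also attach to matrix or cell-surface partners, IGFBP2 through an integrin-binding RGD sequence and IGFBP5 through heparin-binding residues. They are neighbours on chromosome 1, with Igfbp2 at chr1:72824503-72852474 on the plus strand and Igfbp5 at chr1:72857932-72874884 on the minus strand. Their ends face each other across 5457 bases. The 250 bases upstream of a RefSeq start of each gene, for Igfbp2 the first of 2 starts, are shown because both were lower together while reading from opposite strands. The first window is chr1:72824230-72824479, plus strand, and the second is chr1:72874866-72875115, minus strand, both from RefSeq on GRCm38.p6 and written 5′ to 3′ along the gene. Capitals mark the E-box core CACGTG in Igfbp2 and the AP-2 core GCCNNNGGC in Igfbp5.
Igfbp2: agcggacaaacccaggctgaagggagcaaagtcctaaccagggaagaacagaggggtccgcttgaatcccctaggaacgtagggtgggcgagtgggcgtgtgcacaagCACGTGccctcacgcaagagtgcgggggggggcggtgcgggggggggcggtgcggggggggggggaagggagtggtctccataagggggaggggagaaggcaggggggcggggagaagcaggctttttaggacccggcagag
Igfbp5: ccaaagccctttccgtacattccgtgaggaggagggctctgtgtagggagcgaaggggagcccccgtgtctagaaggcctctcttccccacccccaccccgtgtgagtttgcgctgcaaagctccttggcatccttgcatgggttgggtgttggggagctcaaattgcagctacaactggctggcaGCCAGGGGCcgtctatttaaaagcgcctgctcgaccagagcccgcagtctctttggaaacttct

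Both motifs were looked for on both strands, and both read the same on either strand. The E-box core lay 142 bases upstream of the first Igfbp2 start and the AP-2 core 64 bases upstream of the Igfbp5 start. The window of the second Igfbp2 start, chr1:72825137-72825386, held neither motif. The G and C content of the windows shown was 67.2% and 58.8%. RefSeq gave 14 such windows for the 10 members, as some genes have several starts. The AP-2 core was found in 2 of the 14 windows, those of Igfbp5 and of 1 Igf2 start, against 13.7% of 32841 windows of all genes. The E-box core was found in 2 of the 14, those of 1 of the 2 Igfbp2 starts and of Igf2r, against 6.02% of all windows. These matches describe letters in the windows, and no binding was measured here.

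Igfbp2 had 7093, 6868, 6870 and 6572 counts in WT replicates 1 to 4 and 2495, 2308, 2342 and 2289 counts in Hint1-/- replicates 1 to 4. Every WT sample held more than 2 times the counts of any Hint1-/- sample. Its mean CPM was 327.7 ± 10.4 in WT cells (SD, n = 4) against 113.7 ± 4.54 without Hint1 (SD, n = 4), or 34.7% of WT. The log2 fold change was -1.53 (SE 0.037), with a 95% interval from -1.60 to -1.45. Among the 4610 tested genes that averaged 1000 counts or more, Igfbp2 ranked 2 by lowered fold, after Hint1 itself, and was followed by Postn at a log2 fold change of -1.08. By CPM lost it ranked 15 of 13535, with a loss of 214 CPM.

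Igfbp5 had 686, 586, 581 and 626 counts in WT replicates 1 to 4 and 237, 224, 251 and 239 counts in Hint1-/- replicates 1 to 4. The lowest WT sample again exceeded 2 times the highest Hint1-/- sample. The level was 38.7% of WT, at a log2 fold change of -1.37 (SE 0.066, 95% interval -1.51 to -1.23). The fold changes of the neighbours were close, and the ratio of Igfbp2 to Igfbp5 counts ranged from 10.3 to 11.8 in WT and from 9.33 to 10.5 in Hint1-/- samples. These ranges overlapped, whereas the ratio of Igfbp2 to Igfbp3 was 0.922 to 1.06 in WT and 0.286 to 0.330 in Hint1-/- samples.

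The genes around the pair were examined next, a choice made after the values were seen. Within 1 Mb of the pair 7 other genes have rows in the files, and 5 of these 7 were tested: Mreg, Pecr, Xrcc5, Smarcal1 and Rpl37a. Of the 5, 0 were called in edgeR's quasi-likelihood test and 0 passed by adjusted p alone. Rpl37a, a ribosomal protein gene and the nearest of them, had 4100 to 4923 counts in WT and 4318 to 4714 in Hint1-/- samples, with its log2 fold change at -0.04 (SE 0.048) and an edgeR adjusted p of 0.61. Xrcc5, a DNA repair gene, had the smallest adjusted p of the 5, with its log2 fold change at 0.11 (SE 0.055) and an edgeR adjusted p of 0.157. All 5 lie on one side of the pair, that of Igfbp2.

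**Figure D2:**
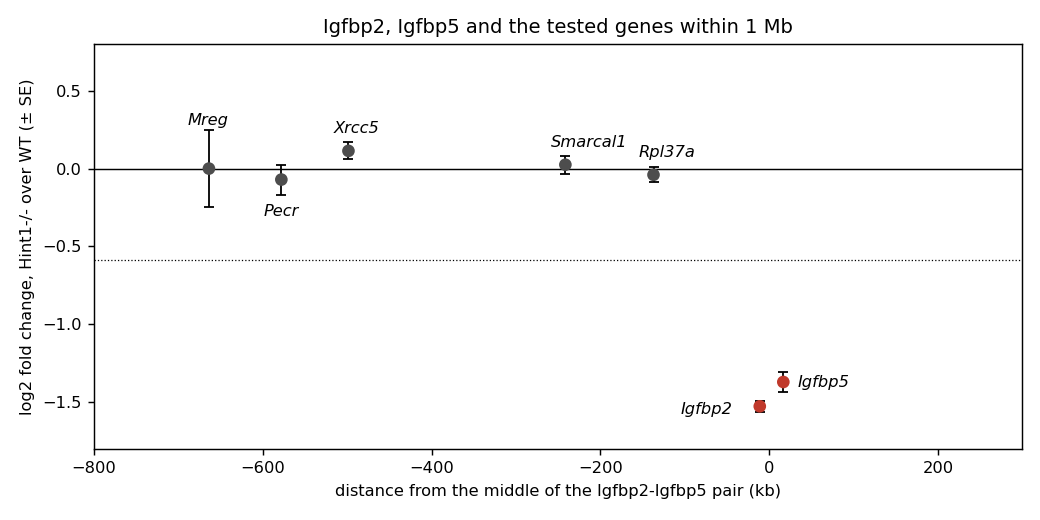
Log2 fold change of Hint1-/- over WT with its SE (vertical axis) against distance in kb from the middle of the Igfbp2-Igfbp5 pair (horizontal axis), for the pair (red) and the 5 tested genes within 1 Mb (grey). The pair sits at -1.53 and -1.37, beyond the dotted line that marks a 1.5-fold decrease, and the 5 neighbours lie between -0.07 and 0.11.

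Cell type markers shifted between the genotypes along with Igfbp2 and Igfbp5. Summed over 10 Schwann and glial markers, the level was 68.4 to 74.2 CPM in WT samples against 27.8 to 30.8 CPM without Hint1, and 7 of the 9 tested were called, all 7 lower. Its defining gene Sox10 had 240 to 266 counts in WT and 41 to 48 in Hint1-/- samples. The 12 smooth muscle markers, all detected in every sample, summed to 2728 to 2909 CPM in WT samples against 2525 to 2616 CPM without Hint1. That sum was made up mostly of Cald1, Acta2 and Tagln, while Myh11 had a mean of 20.4 CPM in WT cells against 6.98 CPM without Hint1. Of the 12, Myh11, Cnn1 and Des were called lower, at log2 fold changes of -1.54, -1.12 and -0.61. By adjusted p alone 8 were lower and 1, Smtn, was higher (0.25), while Cald1, Mylk and Tagln did not pass. The 10 fibroblast markers overlapped in their sum, at 8455 to 9380 CPM in WT samples against 8668 to 9323 CPM without Hint1, a sum made up mostly of Col1a1 and Col1a2. Of the 10, 3 were called, Dcn and Lum higher (log2 fold changes 0.83 and 0.88) and Dpt lower (-0.79). The part of any cell type in the levels of Igfbp2 and Igfbp5 was not tested. In bulk RNA, fewer cells of a type and less RNA per cell cannot be told apart.

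The genes whose log2 CPM tracked Igfbp2 most closely over the 8 samples, among 11848 genes that averaged 50 counts or more, were Postn (Pearson r = 0.999), Sox10 (0.998), Col15a1 (0.998), Mcam (0.996) and Ngfr (0.996). Postn and Col15a1 encode matrix proteins, and Sox10 and Ngfr belong to the glial list. The genes that ran most opposite were Cp (r = -0.998), Col2a1 (-0.998), Hgf (-0.997), Lcn2 (-0.996) and Slc16a3 (-0.996). The 8 points fall into the 2 genotypes, so these values describe genes with a like or opposite genotype difference. Igfbp5 had r = 0.993 with Igfbp2, and Igfbp4 had r = -0.980.

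The ligands were the least abundant members per length of exon, and they differed in opposite directions. Igf2 (chr7:142650766-142666816, minus strand), an imprinted fetal growth factor expressed from the paternal copy, had 100, 88, 85 and 86 counts in WT replicates 1 to 4. In Hint1-/- replicates 1 to 4 it had 174, 193, 198 and 146 counts. All Hint1-/- samples lay above all WT samples, with more spread in the Hint1-/- group. Igf2 was 1.99-fold higher, at a log2 fold change of 1.00 (SE 0.108, 95% interval 0.77 to 1.22).

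Igf1 (chr10:87858265-87937042) had 274, 323, 254 and 254 counts in WT replicates 1 to 4 and 208, 190, 210 and 193 counts in Hint1-/- replicates 1 to 4. The groups did not overlap, and WT replicate 2 was the highest sample. The level was 73.1% of WT (log2 fold change -0.45, SE 0.081), within the fold limit of the call. The ratio of Igf2 to Igf1 counts was 0.272 to 0.365 in WT and 0.756 to 1.02 in Hint1-/- samples.

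Macrophages are a known source of IGF1, and macrophage markers were present in all samples. Summed over 10 markers they reached 2692 to 3078 CPM in WT samples against 2205 to 2365 CPM without Hint1. Of the 10 tested, 9 were lower by adjusted p alone and 0 were called, with a median log2 fold change of -0.34. The defining marker Csf1r had 7863 to 8886 counts in WT and 6109 to 6663 in Hint1-/- samples. The extraction protocol in the labels also covers aortic tissue and bone marrow-derived macrophages. The part of these cells in the level of Igf1 was not tested. Endothelial markers were near the floor of detection, with 8.15 to 10.9 CPM in WT samples against 8.48 to 10.5 CPM without Hint1, over 10 genes. Some markers of other cell types were higher in Hint1-/- samples, as Igf2 was. Of 4 tested cardiac muscle markers 3 were called, all 3 higher. Among them, Myh6 had 0 to 3 counts in WT samples and Myl7 had 0. Myh6 and Myl7 passed the filter on low counts only through their Hint1-/- samples, so they could be called only as higher. The 9 listed cardiac markers summed to 1.67 to 2.59 CPM in WT samples against 5.59 to 9.18 CPM without Hint1. The chondrocyte markers summed to 27.8 to 29.6 CPM in WT samples against 54.8 to 58.7 CPM without Hint1, but they did not differ one way. Most of that gap was Col2a1, with a mean of 2.28 CPM in WT cells against 24.4 CPM without Hint1. Comp was also called higher, and Acan was called lower (log2 fold change -1.84). Acan had only 14 to 23 counts in WT and 2 to 6 in Hint1-/- samples. It passed the filter on low counts only through its WT samples, so it could be called only as lower. The mesothelial sum, 5.98 to 6.76 CPM in WT samples against 7.55 to 10.8 CPM without Hint1, was mostly Krt19, called higher, while the other tested marker, Upk3b, was at a log2 fold change of -0.31 and was not called. Of the 8 mesothelial markers, 5 stayed under 10 counts in every sample, Msln and Wt1 among them. The part of any of these cells in the level of Igf2 was not tested.

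Neither receptor was called. Igf1r (chr7:67952827-68233668) had 1424, 1360, 1316 and 1266 counts in WT replicates 1 to 4 and 1405, 1320, 1316 and 1416 counts in Hint1-/- replicates 1 to 4. The samples were interleaved, and the log2 fold change of 0.04 had a 95% interval from -0.05 to 0.12. Igf2r (chr17:12682406-12769664, minus strand) had 4220, 4461, 4186 and 4383 counts in WT replicates 1 to 4 and 4338, 4300, 3944 and 4559 counts in Hint1-/- replicates 1 to 4. Its interval, from -0.08 to 0.09 on the log2 scale, was likewise narrow around 0. Airn, an antisense RNA that overlaps Igf2r, has no row in the files, and how the counting treated strand is not given in the sources used here.

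The remaining binding proteins differed less between the genotypes than Igfbp2 and Igfbp5. Igfbp4 (chr11:99041244-99054392), a target of PAPP-A that is known as an inhibitor of IGF action, had 1341, 1275, 1281 and 1290 counts in WT replicates 1 to 4. In Hint1-/- replicates 1 to 4 it had 1784, 1696, 1842 and 1729 counts, all above the WT samples. The log2 fold change was 0.45 (SE 0.037), or 1.37-fold, within the fold limit. Set against Igfbp5, its count ratio was 1.95 to 2.20 in WT and 7.23 to 7.57 in Hint1-/- samples.

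Igfbp6 (chr15:102144362-102149511), which binds IGF2 with preference over IGF1, had 610, 494, 584 and 652 counts in WT replicates 1 to 4 and 445, 433, 439 and 456 counts in Hint1-/- replicates 1 to 4. The groups did not overlap, though WT replicate 2 came near the Hint1-/- samples. The level was 76.3% of WT (log2 fold change -0.39, SE 0.069).

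Igfbp3 (chr11:7206086-7213923), the main carrier of IGFs in blood, had 7301, 7448, 6876 and 6201 counts in WT replicates 1 to 4 and 7572, 8076, 7525 and 7309 counts in Hint1-/- replicates 1 to 4. Hint1-/- replicate 4 lay among the WT samples, and the log2 fold change was 0.14 (SE 0.048). It passed by adjusted p alone, and in 7 of 16 alternative fits it did not, while the log2 fold change stayed between 0.09 and 0.18 in all of them. Igfbp3 and Igfbp4 share chromosome 11 with Hint1 but lie 47.65 and 44.17 Mb from it.

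Igfbp7 (chr5:77349240-77408041), which binds IGFs weakly, had 34154, 30907, 33250 and 32005 counts in WT replicates 1 to 4 and 33868, 32233, 34163 and 32049 counts in Hint1-/- replicates 1 to 4. The genotypes were interleaved, and the log2 fold change of 0.03 had a 95% interval from -0.04 to 0.11.

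**Figure D3:**
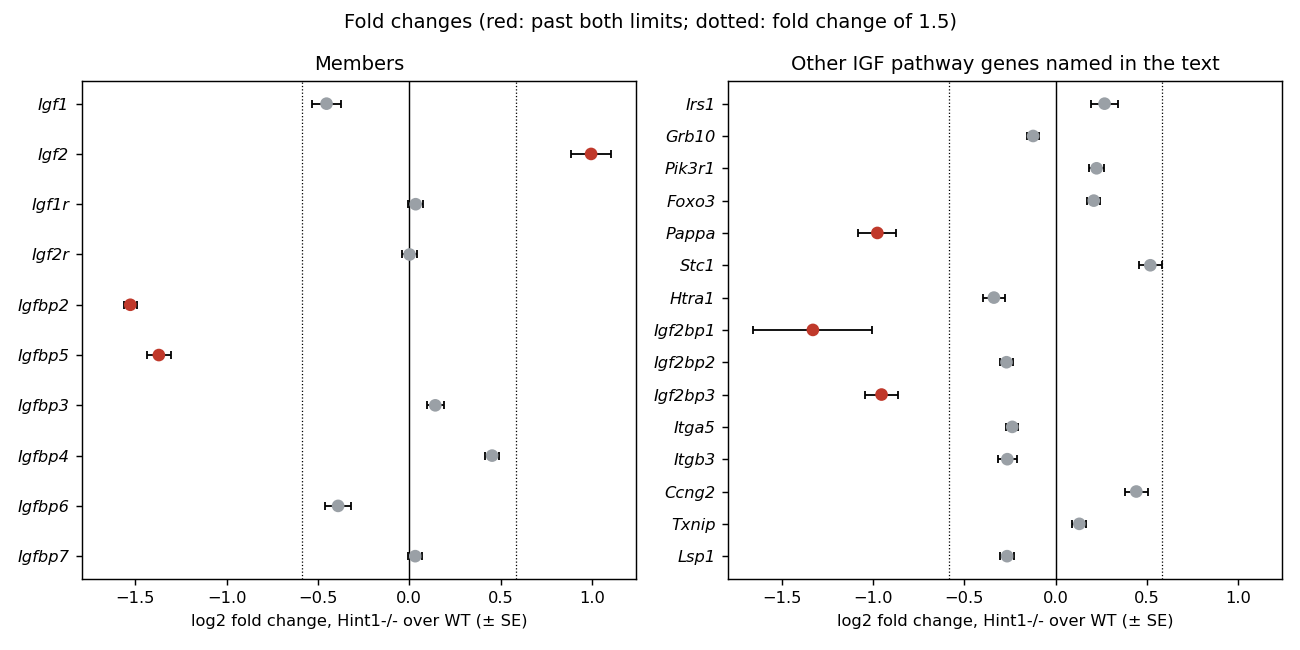
Log2 fold change of Hint1-/- over WT with its SE (horizontal axis) for the 10 members (left) and 15 other genes of the IGF pathway (right). Red points are past both limits of the call, Igfbp2, Igfbp5 and Igf2 on the left and Pappa, Igf2bp1 and Igf2bp3 on the right, and dotted lines mark a fold change of 1.5.

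Levels of different genes were compared per length, as CPM per kilobase of exon, and are given as means. In WT cells the order ran from Igfbp7 (1289), Igfbp2 (177) and Igfbp3 (106) through Igfbp6 (25.2), Igf2r (22.2), Igfbp4 (14.0), Igfbp5 (4.94) and Igf1r (3.82) to Igf1 (1.33) and Igf2 (0.750). Only Igfbp6 and Igf2r overlapped in the ranges of their samples among neighbours in this order. In Hint1-/- cells Igfbp3 (117) stood above Igfbp2 (61.6), Igf1r (3.92) above Igfbp5 (1.91) and Igf2 (1.50) above Igf1 (0.975). Igfbp4 and Igfbp6 were then both at 19.2 and overlapped.

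The mixture of binding protein RNAs shifted with Igfbp2. Of the summed level per kilobase of the 6 binding proteins, Igfbp2 made up 11.0% ± 0.31 in WT and 4.00% ± 0.11 in Hint1-/- samples (SD, n = 4 each). Igfbp7 made up 79.7% ± 0.71 in WT and 85.7% ± 0.42 in Hint1-/- samples. The other 4 took the rest, of which Igfbp3 held 6.58% in WT and 7.64% in Hint1-/- samples. Summed without regard to length, the 6 binding proteins came to 2339 ± 89.8 CPM in WT cells (range 2267 to 2455) against 2193 ± 56.1 CPM without Hint1 (range 2123 to 2239; SD, n = 4 each).

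**Figure D4:**
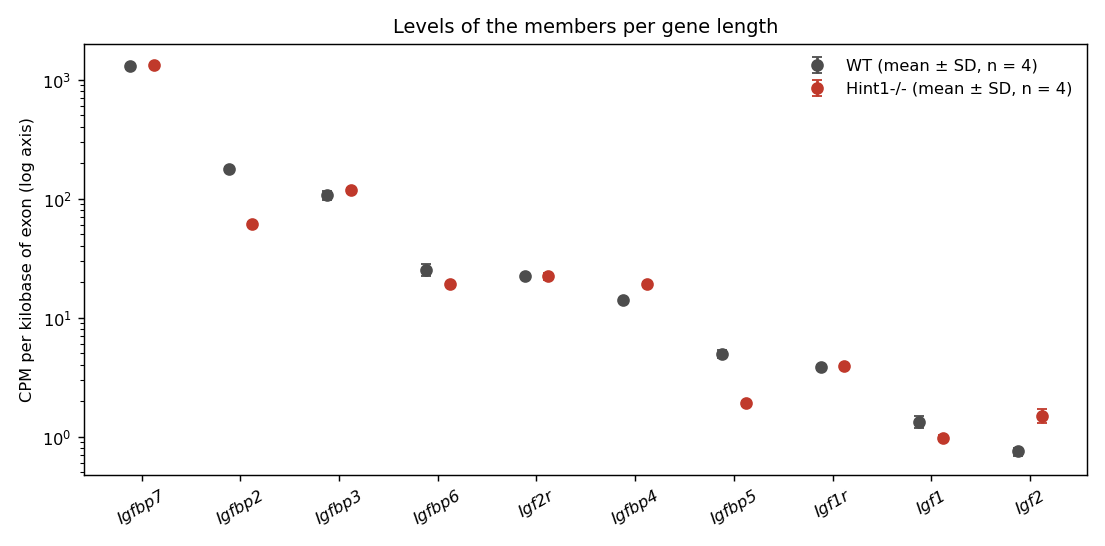
Level per length, in CPM per kilobase of exon (log axis), of each member in WT (grey) and Hint1-/- (red) samples, as mean ± SD (n = 4). Members run from Igfbp7 at 1289 to Igf2 at 0.750 in WT, and Igfbp2, Igfbp5 and Igf2 show the widest gaps between genotypes.

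**Figure D5:**
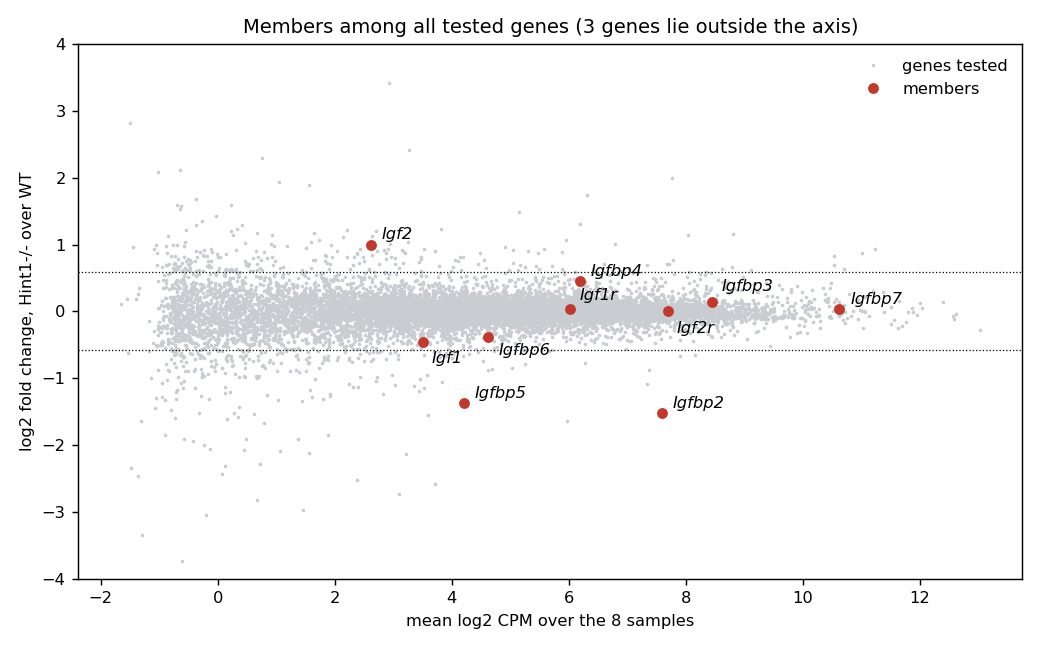
Log2 fold change of Hint1-/- over WT (vertical axis) against the mean log2 CPM of the 8 samples (horizontal axis) for the tested genes (grey), with the members in red and dotted lines at a fold change of 1.5. Igfbp2, at -1.53, lies below the grey points of like abundance. Only the members are labelled, and Lcn2, at 1.99, is among the unlabelled grey points. Outside the vertical axis lie 3 genes.

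Other genes of the IGF pathway were taken from 8 lists of 86 genes in all, of which 79 had rows and 71 were tested. Of the 71, 3 were called (4.23%, against 2.83% of all genes), and all 3 were lower. Among these 3, Igf2bp1 passed the filter on low counts only through its WT samples. By adjusted p alone 23 passed (32.4%, against 21.5% of all genes), 11 higher and 12 lower. Igfbp1, Ins1, Ins2, H19, Irs4, Mmp7 and Plg were not analysed here. The adjusted p-values below are from edgeR's quasi-likelihood test.

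Among 10 tested proteases of binding proteins and their inhibitors, 1 was called and 5 passed by adjusted p alone, 2 higher and 3 lower. Pappa, which encodes PAPP-A, the protease that cuts IGFBP4 and IGFBP5, had 165, 147, 140 and 169 counts in WT replicates 1 to 4 and 72, 77, 78 and 86 counts in Hint1-/- replicates 1 to 4. It fell without overlap by 0.98 on the log2 scale (SE 0.103, adjusted p = 1.23e-06). Stc1, which encodes an inhibitor of PAPP-A, was higher within the fold limit, at 0.52 (SE 0.063, adjusted p = 6.95e-06). Htra1, a secreted serine protease, was lower within it, at -0.34 (SE 0.059, adjusted p = 3.35e-04).

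All 3 IGF2 mRNA-binding protein genes, whose products bind the transcript of Igf2 and many others, were lower by adjusted p, and 2 of the 3 were called. Igf2bp3 had 212, 230, 244 and 218 counts in WT replicates 1 to 4 and 122, 113, 97 and 131 counts in Hint1-/- replicates 1 to 4, and fell by 0.95 on the log2 scale (SE 0.091, adjusted p = 3.79e-07). Igf2bp1 had 16, 14, 19 and 10 counts against 6, 7, 6 and 4, at -1.33 (SE 0.325, adjusted p = 0.00617), and these few counts make its fold change the least certain of those called. It passed the filter on low counts only through its WT samples, so it could be called only as lower. Igf2bp2, with 1687 to 1761 counts in WT and 1370 to 1455 in Hint1-/- samples, stayed within the fold limit at -0.27 (SE 0.034, adjusted p = 1.15e-05).

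Downstream of the receptors, edgeR called 0 of 11 tested receptor and adaptor genes and 0 of 24 genes of the PI3K-AKT-mTOR-FOXO arm. By adjusted p alone 2 and 4 of them passed, or 18.2% and 16.7%, against 21.5% of all genes. The adaptor Irs1 had a log2 fold change of 0.27 (adjusted p = 0.0139) and Grb10, an imprinted inhibitor of the receptors, one of -0.12 (adjusted p = 0.0108). Pik3r1, a regulatory subunit of PI3K, was at 0.22 (adjusted p = 5.46e-04) and the transcription factor gene Foxo3 at 0.21 (adjusted p = 2.69e-04). Of 10 tested FOXO target genes 0 were called. By adjusted p alone 3 passed (30.0%, against 21.5% of all genes), 2 higher and 1 lower. The 2 named were Ccng2 at 0.44 (adjusted p = 3.98e-05) and Txnip at 0.13 (adjusted p = 0.0205).

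Of 8 tested cell-surface partners of the binding proteins 0 were called and 5 passed by adjusted p alone, 3 higher and 2 lower. The lower ones were Itga5, a subunit of the fibronectin receptor through which IGFBP2 attaches, at -0.24 (adjusted p = 4.06e-05), and Itgb3 at -0.26 (adjusted p = 9.43e-04). Near Igf2 on chromosome 7, 0 of 4 tested genes were called and 1 passed by adjusted p alone, Lsp1 at -0.27 (adjusted p = 5.59e-05), a direction opposite to that of Igf2. The only tested gene of the list of other insulin and IGF family ligands and carriers was not called and did not pass by adjusted p alone, at a log2 fold change of 0.25.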

How the data were processed

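RNA-Seq was analysed for WT (n = 4) and Hint1-/- (n = 4) MASMCs, grouped by the genotype in the sample labels. For each sample the authors deposited estimated counts per gene symbol, not normalized. The study's methods name BGISEQ-500 reads of 50 bases mapped to mm10 with Hisat2, whereas the submitters' processing notes name Bowtie2, RSEM 1.3.1 and DESeq2 1.4.5. The annotation is not given in the sources used here. Whole numbers made up 67.3% to 67.8% of a sample's values, and all values were rounded before the tests. Samples held 20778077 to 20888041 counts, and dividing reads between genes and counting error both limit low counts.

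In edgeR 4.0.16 (R 4.3.3), filterByExpr removed genes with low counts, TMM scaled the libraries, and genotype was the sole term of glmQLFit and glmQLFTest. SE is the size of the log2 fold change divided by the square root of the F statistic. The fit was tested on simulated data. Log2 CPM used a prior count of 2. Lengths and positions came from GENCODE M21, in which 17709 of 18533 symbols matched 1 gene. Replicate pairs within a genotype differed by more than sampling noise, with chi-square over degrees of freedom of 2.10 to 5.47. Each library was counted as 1 sample, though this spread does not show whether the libraries came from separate mice or cultures.

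The members and lists were chosen with earlier results of these data known. Genes named were the members, Hint1, each called pathway gene, the 2 other genes of each pathway list with the smallest adjusted p under 0.05, the 5 genes most like and most opposite to Igfbp2, and defining markers. Rpl37a, Xrcc5 and the other genes near Igfbp2 were named after their values were seen. Alternatives were DESeq2 1.42.0, limma-voom (limma 3.58.1), 3 other normalizations, 2 other filters, a block for the replicate number, leaving out each sample, no limit on the fold change, and the longest transcript as gene length.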

Additional observations from a re-analysis of the deposited data

Results flagged for a closer look

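Grb10, the receptor inhibitor gene, had 2655, 2791, 2683 and 2665 counts in Hint1-/- replicates 1 to 4. Replicate 2 stood away from the other samples of its group by 0.859 of the group's range in log2 CPM. It was the only such sample in the 50 groups examined, 2 genotypes for each of 25 genes, and chance marks about 1 in 20 groups.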

How the results depend on the processing

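Under 16 alternatives (other normalizations, filters and tools, the replicate block, and each sample left out), the members called remained Igfbp2, Igfbp5 and Igf2. Log2 fold changes ranged from -1.56 to -1.51 for Igfbp2, -1.40 to -1.32 for Igfbp5 and 0.94 to 1.08 for Igf2. Genes called ranged from 310, with at least 10 counts in every sample, to 442 without a filter, against 383, and from 350 to 390 with a sample left out. DESeq2 gave 338 and limma-voom 394. By adjusted p alone, the counts called were 2907 genes, 7 members and 23 pathway genes in place of 383, 3 and 3. Igfbp3, with log2 fold changes of 0.09 to 0.18, passed by adjusted p in 9 of the 16. It did not with upper-quartile normalization, with library sizes without the 20 most abundant genes, or without WT replicate 3 or 4 or Hint1-/- replicate 1, 2 or 3. Irs1 passed by adjusted p in 15 of 16 and Txnip in 12 of 16 (ranges 0.00763 to 0.0548 and 0.00444 to 0.0822). Igf2bp1 was not tested with at least 10 counts in every sample, which left 2 pathway genes called. With the longest transcript as length, 8 of the 10 members kept their rank by level, and Igfbp5 and Igf1r changed places. With the replicate block, 382 genes, 3 members and 3 pathway genes were called. Whether the numbers pair the samples is not given in the sources used here. Same-numbered samples had correlations of -0.045 to 0.0814, and 2 of 4 WT samples matched their own number best. With 4 samples in a genotype, these values cannot decide whether the samples were paired.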
